A study of Mus musculus with 16 samples.

Results

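The thoracic aorta makes many secreted proteins that tune Wnt signaling outside the cell, and 10 of their genes are described here across its cell types: Sfrp1, Sfrp2, Sfrp4, Frzb, Wif1, Dkk2, Dkk3, Sost, Rspo1 and Rspo3. They were chosen by name from the 31055 features of the count tables, and all 10 were present. Single cell RNA sequencing (10x Genomics 3' chemistry, 1 library per mouse) had been run on the aorta from the root to the arch, from 16 male mice of the strain 129S6/SvEv. All mice carried Myh11-CreER, a tamoxifen-activated Cre recombinase that the smooth muscle promoter of Myh11 drives from the Y chromosome, and all were given tamoxifen. Control mice were Smad3+/+;Myh11-CreER and the others were Smad3lox/lox;Myh11-CreER, called Smad3SmKO, in which Smad3 is to be removed from vascular smooth muscle cells (VSMCs). Aortas were collected 10 weeks after deletion, before dilation was detectable, from 2 Smad3+/+ and 2 Smad3SmKO mice, and at 18 weeks, with moderate dilation, from 5 Smad3+/+ and 7 Smad3SmKO mice. Some mice of both genotypes also carried a conditional EGFP-L10a tracer that Cre switches on.

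Wnt ligands bind a Frizzled receptor and the co-receptors Lrp5 or Lrp6, which stabilizes β-catenin and turns on targets such as Axin2. The secreted Frizzled-related proteins (Sfrp1, Sfrp2, Sfrp4 and Frzb, also called Sfrp3) and Wif1 bind the Wnt ligands themselves. Dkk2 and sclerostin, the product of Sost, bind Lrp5 and Lrp6, whereas Dkk3 is a divergent relative of the Dickkopf proteins that does not act on Lrp6 in the same way. The R-spondins Rspo1 and Rspo3 act in the opposite direction: through Lgr4, Lgr5 and Lgr6 they remove the ligases Rnf43 and Znrf3, which otherwise clear Frizzled from the cell surface. Sclerostin is best known from bone, where osteocytes secrete it, and it is also made by aortic smooth muscle.

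In mm10 coordinates Sost lies on the minus strand of chromosome 11 (101962458 to 101967015), Wif1 on the plus strand of chromosome 10 (121033960 to 121100650) and Sfrp2 on the plus strand of chromosome 3 (83766321 to 83774316). Their promoters are shown because these 3 genes carry the cell type, digestion and genotype values below. Each is the stretch just before the annotated start, 5′ to 3′ on the gene's strand, from RefSeq (GRCm38.p6), at chr11:101967016-101967265 for Sost, chr10:121033754-121033959 for Wif1 and chr3:83766071-83766320 for Sfrp2. Capitals mark a match to the Smad-binding letters CAGAC, which here lies on the opposite strand.
Sost promoter: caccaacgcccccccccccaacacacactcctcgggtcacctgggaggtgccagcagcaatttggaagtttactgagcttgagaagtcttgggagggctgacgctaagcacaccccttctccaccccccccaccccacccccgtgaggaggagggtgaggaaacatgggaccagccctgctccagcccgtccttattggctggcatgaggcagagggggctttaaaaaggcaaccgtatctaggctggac
Wif1 promoter: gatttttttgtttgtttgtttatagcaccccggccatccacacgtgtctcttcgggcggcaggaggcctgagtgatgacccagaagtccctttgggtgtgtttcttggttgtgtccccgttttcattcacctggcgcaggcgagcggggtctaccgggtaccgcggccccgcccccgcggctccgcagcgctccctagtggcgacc
Sfrp2 promoter: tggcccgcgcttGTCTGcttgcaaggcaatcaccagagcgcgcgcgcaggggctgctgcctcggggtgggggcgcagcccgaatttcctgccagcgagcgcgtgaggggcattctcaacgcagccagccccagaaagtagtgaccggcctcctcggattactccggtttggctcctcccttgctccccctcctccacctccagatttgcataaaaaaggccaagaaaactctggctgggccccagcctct
Both strands were searched for the TCF/LEF letters CTTTGA, for CAGAC and for the CArG box of serum response factor. Sost and Wif1 held none of the 3, and Sfrp2 held 1 CAGAC and neither of the others. Among 32851 promoters cut to 250 bases, 13.8% held CTTTGA, 42.2% CAGAC and 1.47% a CArG box, and cut to the 206 bases of Wif1 these shares were 12.1%, 36.7% and 1.20%. No count of these letters therefore set the 3 genes apart.

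After the submitters' quality limits, 50858 of 66349 barcodes (76.7%) were kept, with 631 to 6497 cells per library, and the libraries held 12539539 to 52843031 unique molecular identifiers (UMIs, counted molecules). A cell was called a VSMC with at least 5 Myh11 UMIs and more Myh11 than Dcn (8950 cells, 22 to 1706 per library), a fibroblast with at least 5 Dcn UMIs and more Dcn than Myh11 (36066 cells, 196 to 5505) and endothelium with at least 2 UMIs of Pecam1 and Cdh5 together (3303 cells, 31 to 469). Of the endothelial cells 2049 also met the VSMC or the fibroblast rule, so 1254 cells of no other class were examined too. Markers that had no part in these rules were then summed. In all 16 libraries 6 VSMC markers (Acta2, Tagln, Cnn1, Mylk, Smtn and Lmod1) summed higher in VSMCs (33505 to 71685 CPM) than in fibroblasts (556 to 11476 CPM). The 6 fibroblast markers (Pdgfra, Lum, Dpt, Col1a1, Gsn and Clec3b) summed higher in fibroblasts (11279 to 24058 CPM) than in VSMCs (1182 to 1916 CPM). The 6 endothelial markers (Tie1, Vwf, Egfl7, Kdr, Cldn5 and Emcn) summed to a median of 971 CPM in endothelium, against at most 54.1 CPM in fibroblasts. In endothelium, however, fibroblast markers summed to 10202 CPM and VSMC markers to 3986 CPM at the median. In the cells of no other class, endothelial, fibroblast and VSMC markers were at medians of 3079, 724 and 691 CPM. Levels are given as CPM, a gene's UMIs in a class of a library scaled by the total UMIs of that class there, so that all genes of a class sum to 1000000. A lower summed level cannot tell fewer expressing cells from less RNA per cell.

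Several libraries stood apart or went against their labels. Smad3 itself was not lower in VSMCs of libraries labelled Smad3SmKO, at 5.19 to 8.08 CPM against 4.69 to 5.40 CPM at 10 weeks and 4.04 to 17.3 CPM against 2.83 to 9.89 CPM at 18 weeks. The Smad3 counts do not report whether the deleted part of the transcript was present, and a feature named Sm3_intact, which the sources used here do not describe, held 0 UMIs in VSMCs of all 4 groups, Smad3+/+ included, so it gave no check either. GFP UMIs went against the tracer label in 4 libraries, both Smad3SmKO libraries of 10 weeks (246 and 165 GFP UMIs with no tracer labelled) and replicates 4 and 5 of Smad3+/+ at 18 weeks (0 GFP UMIs with the tracer labelled). Genotype is therefore given as the libraries were labelled. Tissue was digested for 30 min in 7 libraries and for 60 min in 9, and the 30 min libraries held 22 to 259 VSMCs each against 319 to 1706. All 10-week libraries formed 1 batch of 60 min digestion, so time and batch cannot be told apart. Of 50541 distinct barcodes 315 occurred in over 1 library, at most 11 (0.363%) for any pair. Smad3SmKO replicate 7 of 18 weeks held the fewest cells and the highest summed VSMC markers in its fibroblasts, 11476 CPM.

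Fibroblasts were the main source of most of these transcripts, and VSMCs of Sost. In an edgeR quasi-likelihood fit with library as a block, 8 of the 10 genes differed between fibroblasts and VSMCs at a Benjamini-Hochberg adjusted p under 0.05, 7 higher in fibroblasts and Sost lower. Of all 14114 genes tested 72.1% differed (39.4% higher in fibroblasts and 32.8% lower), so the number called is near the background and the sizes carry the description. The median log2 difference, fibroblast against VSMC, was 1.30 over the 10 genes and 0.07 over all genes.

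**Figure D1:**
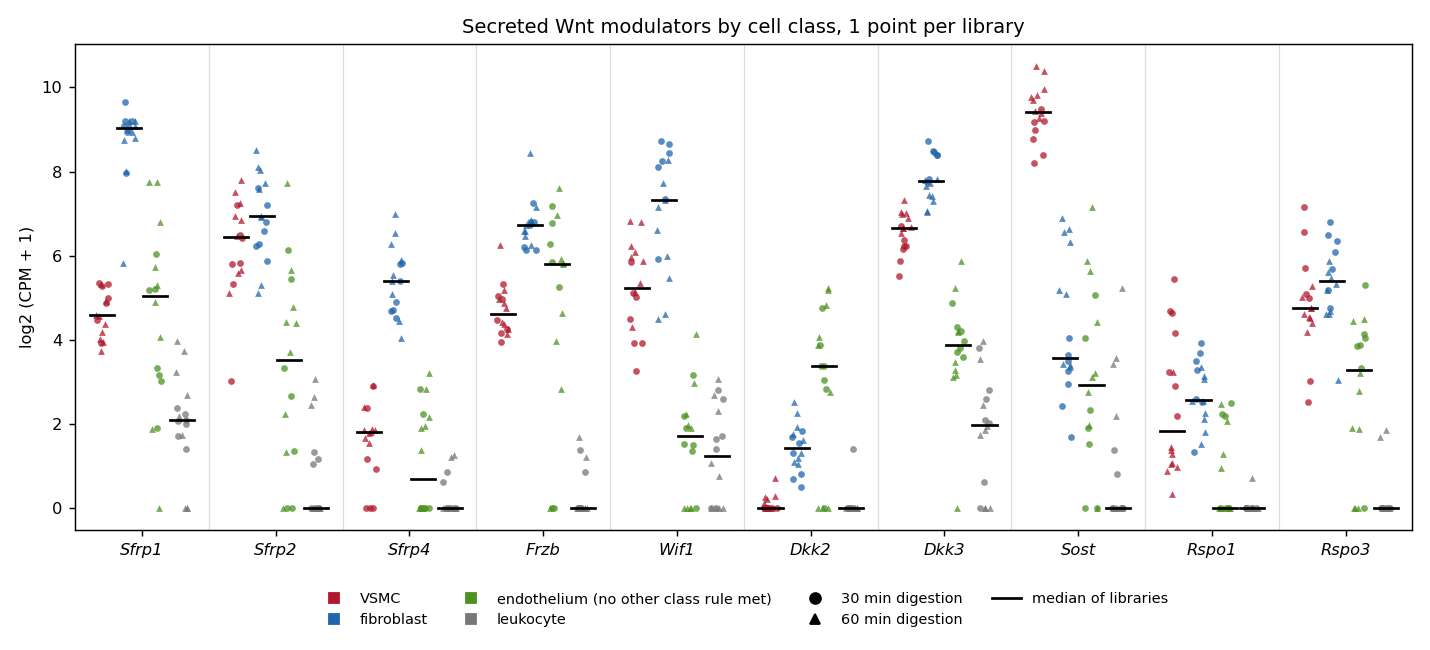
Level of each gene as log2(CPM + 1) on the vertical axis, with 1 point per library, colors for VSMCs, fibroblasts, endothelial cells that met no other class rule and leukocytes, circles for 30 min and triangles for 60 min of digestion, and black lines at the median of the libraries. Sost in VSMCs lies above every fibroblast value, and Sfrp1 and Sfrp4 in fibroblasts lie above every VSMC value.

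Sost was the only one of the 10 that was highest in VSMCs. Over the 16 libraries its VSMC level was 295 CPM at the lowest, 679 CPM at the median and 1452 CPM at the highest, against 2.23, 10.9 and 118 CPM in fibroblasts, and VSMCs exceeded fibroblasts in 16 of 16 libraries. The log2 difference, fibroblast against VSMC, was -5.27 (SE 0.302, adjusted p = 2.45e-16 by edgeR). A Sost UMI was found in 85.2% of VSMCs, 6.46% of fibroblasts and 2.06% of leukocytes, in which the gene should be silent, at library medians of 10824, 10903 and 6364 UMIs per cell. Thinned to 2000 UMIs per cell the shares were 67.7%, 3.02% and 1.03%.

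The Sost found in fibroblasts moved with smooth muscle transcripts. Its fibroblast level was 2.17% of the VSMC level at the median (0.754% to 9.86%), above all 6 VSMC markers treated the same way in 0 of 16 libraries and above their median in 6. Genes whose level was most raised in fibroblasts with a Sost UMI over those without were Myh11, the smooth muscle myosin heavy chain, by a median log2 of 3.44 over 16 libraries, Cnn1 by 3.42 and Acta2 by 2.83. Whether these cells held VSMC RNA was not tested beyond these values.

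Among the Wnt-binding proteins, Sfrp1 and Sfrp4 separated the classes most. Sfrp1 ran from 55.9 through a median of 521 to 808 CPM in fibroblasts and from 12.4 through 23.0 to 39.6 CPM in VSMCs (log2 4.14, SE 0.264, adjusted p = 3.30e-15 by edgeR). Sfrp4 ran from 15.6 through 41.0 to 126 CPM in fibroblasts and from 0 through 2.49 to 6.57 CPM in VSMCs (log2 3.95, SE 0.276, adjusted p = 2.33e-14 by edgeR). Both were higher in fibroblasts in 16 of 16 libraries. Their VSMC level was 5.31% and 4.84% of the fibroblast level at the median, within the range of the 6 fibroblast markers, for which that figure ran from 1.13% (Clec3b) to 20.3% (Col1a1). Sfrp1 was above the median of those markers in 16 of 16 libraries and above all 6 in 1. Sfrp4 was above their median in 12 of 16 and above all 6 in 2.

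Frzb was also higher in fibroblasts in 16 of 16 libraries, at 68.8, 105 and 344 CPM (lowest, median, highest) against 14.4, 23.6 and 74.9 CPM (log2 2.03, SE 0.123, adjusted p = 1.79e-16 by edgeR). Its VSMC level, 23.8% of the fibroblast level at the median, was above all 6 markers in 9 of 16 libraries. Sfrp2 stood much closer between the classes, at 33.7, 122 and 362 CPM in fibroblasts and 7.11, 86.5 and 221 CPM in VSMCs (log2 0.57, SE 0.190, adjusted p = 0.00839 by edgeR). VSMCs held 60.7% of the fibroblast level of Sfrp2 at the median, above all 6 markers in 15 of 16 libraries, so its VSMC level lay beyond what those markers showed. The Sfrp2 call was lost in the 60 min libraries alone (log2 0.53, SE 0.272, adjusted p = 0.0892 by edgeR) and with stricter class rules (log2 0.64, adjusted p = 0.0571 by edgeR).

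Wif1, which binds Wnt ligands through its WIF domain, differed between digestion times in both classes. Fibroblasts held 59.6, 302 and 421 CPM (lowest, median, highest) in the 30 min libraries and 21.5, 96.3 and 309 CPM in the 60 min libraries, whereas VSMCs held 8.66, 21.7 and 56.5 CPM and 18.9, 61.9 and 113 CPM. The level in fibroblasts was thus lower, and that in VSMCs higher, in the 60 min libraries, with overlapping ranges. The 60 min libraries include all those of 10 weeks, with mean VSMC levels of 111 (Smad3+/+) and 68.2 CPM (Smad3SmKO). In batch 6, of 18 weeks, these means were 48.7 and 18.9 CPM, and batch 5 held Smad3SmKO alone. Over all libraries the log2 difference, fibroblast against VSMC, was 1.49 (SE 0.364, adjusted p = 5.36e-04 by edgeR), and fibroblasts were higher in 14 of 16 libraries. It was 3.38 (SE 0.310, adjusted p = 4.56e-07 by edgeR) in the 30 min libraries and 0.68 (SE 0.380, adjusted p = 0.122 by edgeR) in the 60 min libraries. The difference between digestion times was also one between batches and in part between time points, and it was not tested.

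Of the Dickkopf genes, Dkk3 was widespread and Dkk2 rare. Dkk3 had a median of 217 CPM and a highest value of 421 CPM in fibroblasts, and 99.4 and 158 CPM in VSMCs (log2 1.10, SE 0.178, adjusted p = 1.68e-06 by edgeR), higher in fibroblasts in 16 of 16 libraries. It too differed between the digestion times, which also differed in batch and in part in time point. Fibroblasts were at a median of 337 CPM at 30 min against 173 CPM at 60 min, and VSMCs at 44.5 to 103 CPM against 91.6 to 158 CPM. Dkk2 reached 0.429, 1.71 and 4.71 CPM in fibroblasts and only 10 UMIs in all VSMCs of the 16 libraries (log2 4.05, SE 0.525, adjusted p = 1.26e-08 by edgeR). A Dkk2 UMI was found in 0.643% of fibroblasts and 0.0559% of VSMCs, beside 0.147% of leukocytes.

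The R-spondins were not called between fibroblasts and VSMCs. Rspo3 held 7.29, 41.3 and 110 CPM in fibroblasts and 4.72, 26.1 and 141 CPM in VSMCs (log2 0.31, SE 0.201, adjusted p = 0.173 by edgeR). Without Smad3SmKO replicate 3 or without Smad3+/+ replicate 4, both of 18 weeks, Rspo3 passed the threshold, and over all single omissions its log2 difference ran from 0.21 to 0.43. Rspo1 held 1.54, 4.99 and 14.1 CPM in fibroblasts and 0.270, 2.68 and 42.4 CPM in VSMCs (log2 0.56, SE 0.334, adjusted p = 0.132 by edgeR), and it was called without Smad3+/+ replicate 3 of 18 weeks (log2 0.84). In VSMCs the 7 libraries of 30 min held 3.60, 17.0 and 42.4 CPM of Rspo1 and the 9 of 60 min held 0.270, 1.11 and 8.38 CPM. The fibroblast against VSMC log2 difference of Rspo1 was -0.86 (SE 0.382, adjusted p = 0.0680 by edgeR) at 30 min and 1.69 (SE 0.282, adjusted p = 1.61e-05 by edgeR) at 60 min. The sign thus differed between digestion times, which also differed in batch and in part in time point, but the 30 min value was not called. The difference between the digestion times was not tested. The 30 min VSMC values rest on 107 UMIs in all.

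Endothelial cells were compared with fibroblasts in the same fit, where 8 of 10 genes were called beside 40.2% of all genes tested (17.3% higher in endothelium and 22.9% lower). Sfrp1 (log2 -1.97), Wif1 (-1.87), Rspo3 (-1.06), Sfrp4 (-0.90) and Dkk3 (-0.71) were lower in endothelium and Sost (2.37), Dkk2 (1.18) and Sfrp2 (0.58) higher, whereas Frzb (0.11) and Rspo1 (-0.41) were not called. Most of these cells also met another class rule, and the values changed when such cells were removed. In cells of 1 class only, over the 15 libraries with at least 10 of them, Sfrp2 was lower in endothelium (log2 -2.66, SE 0.360, adjusted p = 2.02e-07 by edgeR), Sost was not called (-0.34, adjusted p = 0.522 by edgeR) and Frzb was lower (-0.99, adjusted p = 0.00347 by edgeR). Of the 3 genes higher in endothelium, Dkk2 alone kept that direction and its call in cells of 1 class, with a log2 difference of 2.60 (SE 0.395, adjusted p = 5.82e-07 by edgeR).

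Dkk2, which binds the Wnt co-receptors, was thus the 1 gene of the 10 that was highest in endothelium. In endothelial cells of no other class it ran from 0 through a median of 9.36 to 36.6 CPM, on 100 UMIs in all, against 0.408, 1.88 and 4.88 CPM in fibroblasts of no other class, and it was higher in 12 of 16 libraries. It was at 0 in the other 4. The call in all endothelial cells was lost in the 60 min libraries alone (log2 1.20, SE 0.494, adjusted p = 0.0679 by edgeR). Frzb remained measurable there too, at 0, 55.1 and 194 CPM, while Wif1 was at 0, 2.30 and 16.5 CPM. In these same cells the pericyte marker list summed to between 93.0 and 11299 CPM and the leukocyte list to between 8.24 and 1741 CPM, and their part in the values was not tested.

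Within fibroblasts, some of these genes were found in the same cells more than others. For each gene, fibroblasts with at least 1 UMI were compared with those without, and other genes were ranked by the median over libraries of the log2 ratio of their levels (CPM + 5). Wif1, found in 18.1% of fibroblasts, went with Coch, which encodes the extracellular protein cochlin (median log2 3.95 over 16 libraries), with the ligand Wnt16 (3.19) and with Nrgn (3.17). Rspo3 went with Wif1 (3.42), Coch (3.27) and Nrgn (3.19), and Dkk3 with Wif1 (2.84), Coch (2.82) and Prss35 (2.18). Wif1, Rspo3 and Dkk3, an inhibitor, an agonist and a divergent Dickkopf protein, were therefore found together. Fibroblasts with a Wif1 UMI held more Rspo3 (2.48, in 15 of 16 libraries) and more Dkk3 (1.65, in 16 of 16).

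Sfrp2 and Sfrp4 formed another pair. Fibroblasts with a Sfrp2 UMI (16.5%) held more Sfrp4 (1.85, in 15 of 16 libraries), Edn1 (1.53) and Wisp2 (1.45), and those with a Sfrp4 UMI (12.3%) held more Sfrp2 (1.82, in 15 of 16), Smpd3 (1.67) and Plac8 (1.46). Fibroblasts with Sfrp4 held less Wif1 in 16 of 16 libraries (-2.14). Sfrp1, found in 62.5% of fibroblasts, went with the chemokine Cxcl14 (2.81), the opioid precursor Penk (2.24) and Gpx3 (1.96). Frzb (34.6%) went with Spp1 (2.32), 1500015O10Rik (2.23) and Chad (1.87), and Rspo1 (4.49%) with Inmt (1.90), Hp (1.66) and Ifi205 (1.65). All of these are descriptions within the libraries, without a test, since the cells of 1 mouse share their library and depth. Dkk2 was in too few fibroblasts to rank.

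**Figure D2:**
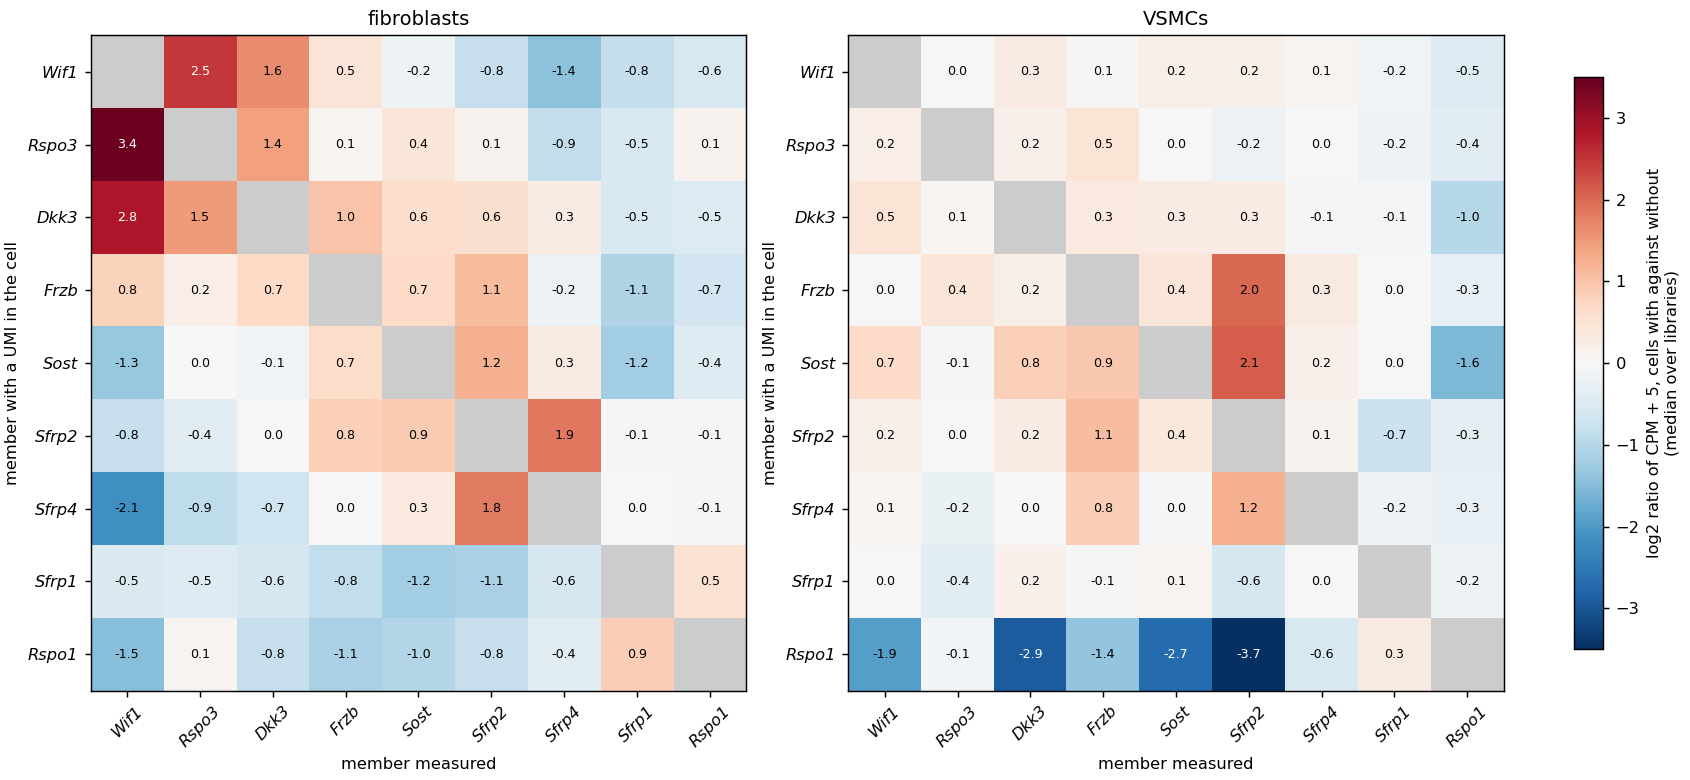
For cells with at least 1 UMI of the gene in each row against cells without, the log2 ratio of the level (CPM + 5) of the gene in each column, as the median over libraries, in fibroblasts (left) and VSMCs (right). In fibroblasts Wif1, Rspo3 and Dkk3 form 1 block and Sfrp2 and Sfrp4 another, and in VSMCs the row of Rspo1 is lowest for Sfrp2 (-3.69), Dkk3 (-2.91) and Sost (-2.68).

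Across libraries, the VSMC level of Sfrp2 and Sost followed the fibroblast level by both Pearson's and Spearman's correlation. Over the 9 genes measured in both classes, permutation tests with Benjamini-Hochberg adjustment were run on log2(CPM + 1), and both values of a pair come from 1 library. The libraries also differed in batch, time point and genotype label, which these correlations did not take into account. For Sfrp2 Pearson's r was 0.77 (permutation p = 3.60e-04, adjusted 0.00162) and Spearman's rho 0.86 (permutation p = 1.20e-04, adjusted 0.00108), and r was 0.82 without the 2 libraries farthest from the median. Within digestion times r of Sfrp2 was 0.79 at 30 min (7 libraries, exact permutation p = 0.0127, adjusted 0.114), where it dropped to 0.43 without the 2 farthest libraries, and 0.88 at 60 min (9 libraries, exact permutation p = 0.00231, adjusted 0.0208). Its rho was 0.75 at 30 min (exact permutation p = 0.0663, adjusted 0.445) and 0.85 at 60 min (exact permutation p = 0.00607, adjusted 0.0485). For Sost r was 0.84 (permutation p = 6.00e-05, adjusted 5.40e-04) and rho 0.71 (permutation p = 0.00298, adjusted 0.0134), and 0.79 without the 2 farthest.

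Within digestion times r of Sost was 0.66 at 30 min (7 libraries, exact permutation p = 0.119, adjusted 0.389), where it turned to -0.66 without the 2 farthest libraries, and 0.76 at 60 min (9 libraries, exact permutation p = 0.0151, adjusted 0.0677). Its rho was 0.39 at 30 min (exact permutation p = 0.396, adjusted 0.445) and 0.82 at 60 min (exact permutation p = 0.0108, adjusted 0.0485). Within digestion times the relation of Sost thus passed an adjusted p under 0.05 at 60 min by rho and not by r, and by neither at 30 min. The part of batch, of time point and of VSMC RNA in fibroblasts in this relation was not tested.

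Dkk3 and Rspo1 passed over all libraries by rho and not by r. Dkk3 ran the other way, with r of -0.57 (permutation p = 0.0215, adjusted 0.0591) and rho of -0.61 (permutation p = 0.0142, adjusted 0.0427), and r was -0.52 without the 2 farthest libraries. Within digestion times its r was 0.42 at 30 min (exact permutation p = 0.350, adjusted 0.394). At 60 min it was -0.31 (exact permutation p = 0.405, adjusted 0.546), with the sign seen over all libraries. Neither passed, and so few libraries cannot show that the relation was absent. Rspo1 had r of 0.54 (permutation p = 0.0291, adjusted 0.0591) and rho of 0.58 (permutation p = 0.0205, adjusted 0.0461), with r of 0.67 without the 2 farthest. Its r was 0.47 at 30 min (exact permutation p = 0.302, adjusted 0.389) and 0.56 at 60 min (exact permutation p = 0.0935, adjusted 0.253), and neither passed. Frzb had r of 0.64 (permutation p = 0.0328, adjusted 0.0591) but rho of 0.19 (permutation p = 0.481, adjusted 0.542), and r dropped to 0.30 without the 2 farthest libraries. For Wif1 r was -0.18 (permutation p = 0.503, adjusted 0.647).

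**Figure D3:**
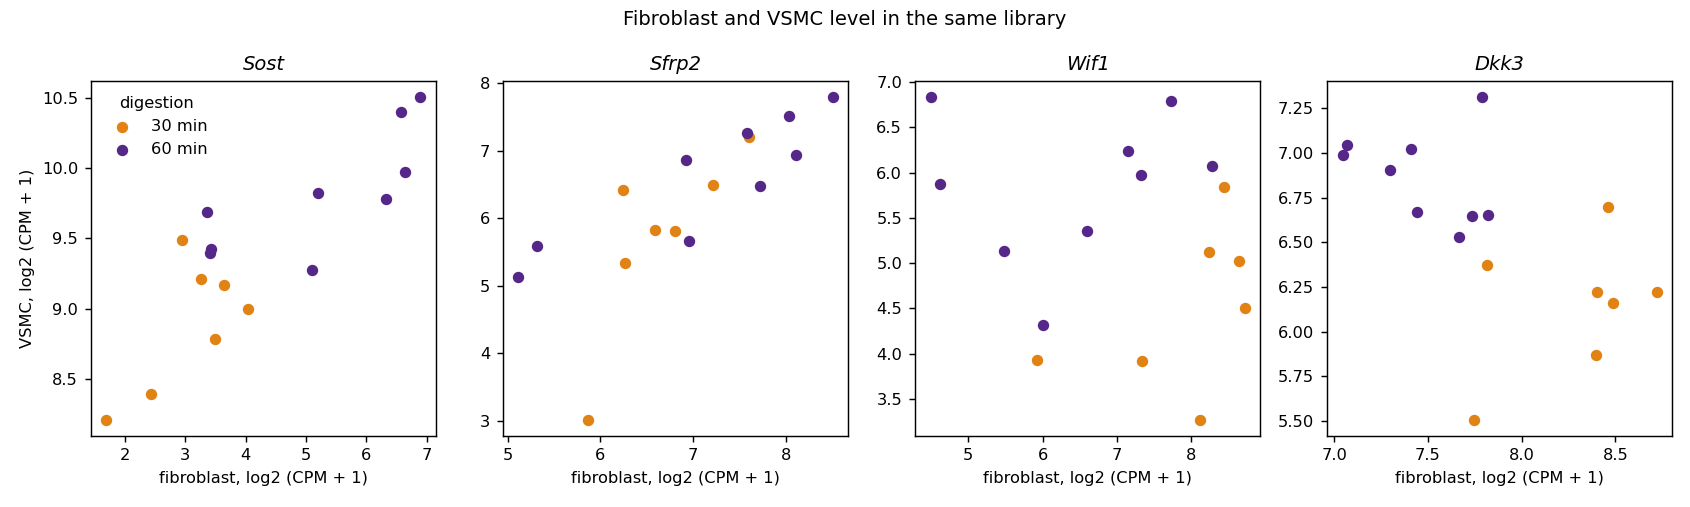
VSMC level (vertical) against fibroblast level (horizontal) of Sost, Sfrp2, Wif1 and Dkk3 as log2(CPM + 1), 1 point per library, orange for 30 min and purple for 60 min of digestion. Sost and Sfrp2 rise together in both classes, with r of 0.84 and 0.77, and the 30 min libraries of Dkk3 lie low in VSMCs.

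The comparison of genotypes asked whether loss of Smad3 in VSMCs changes these modulators before and after dilation. At 18 weeks 0 of the 9 genes tested in VSMCs passed an adjusted p under 0.05 (edgeR quasi-likelihood test with batch as a factor), 1 had an unadjusted p under 0.05 and DESeq2 called 0. Of all 11852 genes tested 0.0337% were called. Adjusted p-values were 1.00 throughout, and Dkk2, with 10 UMIs, was not tested. The median log2 difference, libraries labelled Smad3SmKO against Smad3+/+, was 0.34 over the 9 genes and -0.01 over all genes. The groups overlapped for all 10 genes, and 0.186% of all genes had groups that did not overlap.

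Wif1 was the gene with an unadjusted p under 0.05, and Sfrp2 had the next smallest. Wif1 in VSMCs measured 21.7, 56.5, 33.9, 57.6 and 39.8 CPM in the 5 Smad3+/+ libraries and 8.66, 18.9 and 66.5 CPM (lowest, median, highest) in the 7 labelled Smad3SmKO, which overlap (1.99-fold lower, SE 0.376 on the log2 scale, adjusted p = 1.00 by edgeR). Both genotypes were present in 4 batches, and in 3 of them Wif1 was lower under the Smad3SmKO label. Smad3SmKO replicates 5 and 7 formed batch 5, which held no Smad3+/+ library. With batch as a factor these libraries did not inform the genotype differences at 18 weeks, although the levels given here and below include them. Sfrp2 measured 55.6, 39.4, 55.1, 33.9 and 47.1 CPM against 7.11, 115 and 221 CPM (log2 1.10, SE 0.501, adjusted p = 1.00 by edgeR), with 6 of the 7 libraries labelled Smad3SmKO above every Smad3+/+ library and replicate 4, with the fewest UMIs, below them all. It was higher in 3 of 4 batches, and without Smad3SmKO replicate 6, in batch 6, its log2 difference was 0.46. The pericyte marker list summed to between 143 and 430 CPM in Smad3+/+ VSMCs and between 230 and 1365 CPM in VSMCs labelled Smad3SmKO, and its part in the Sfrp2 values was not tested.

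Rspo3 and Frzb in VSMCs followed. Rspo3 measured 4.72, 50.9, 31.1, 21.8 and 26.2 CPM against 7.11, 33.3 and 141 CPM (log2 1.10, SE 0.591, adjusted p = 1.00 by edgeR), so the groups overlapped widely, with the lowest value in a Smad3+/+ library and the highest in one labelled Smad3SmKO. Frzb measured 17.0, 18.0, 21.2, 28.6 and 18.0 CPM against 14.4, 32.0 and 74.9 CPM (log2 0.62, SE 0.402, adjusted p = 1.00 by edgeR), and it was higher in 4 of 4 batches. Sost measured 335, 574, 295, 824 and 671 CPM against 439, 687 and 1350 CPM (log2 0.34, SE 0.234, adjusted p = 1.00 by edgeR), higher in 2 of 4 batches. Fitted without the filter on low counts, Sfrp2 (1.09, adjusted p = 3.10e-07), Rspo3 (1.09, adjusted p = 1.41e-05) and Wif1 (-1.01, adjusted p = 8.85e-04) were called by edgeR in VSMCs at nearly the same log2 differences, among 134 genes called in place of 4. The genotype statements on these 3 genes thus depended on that filter.

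**Figure D4:**
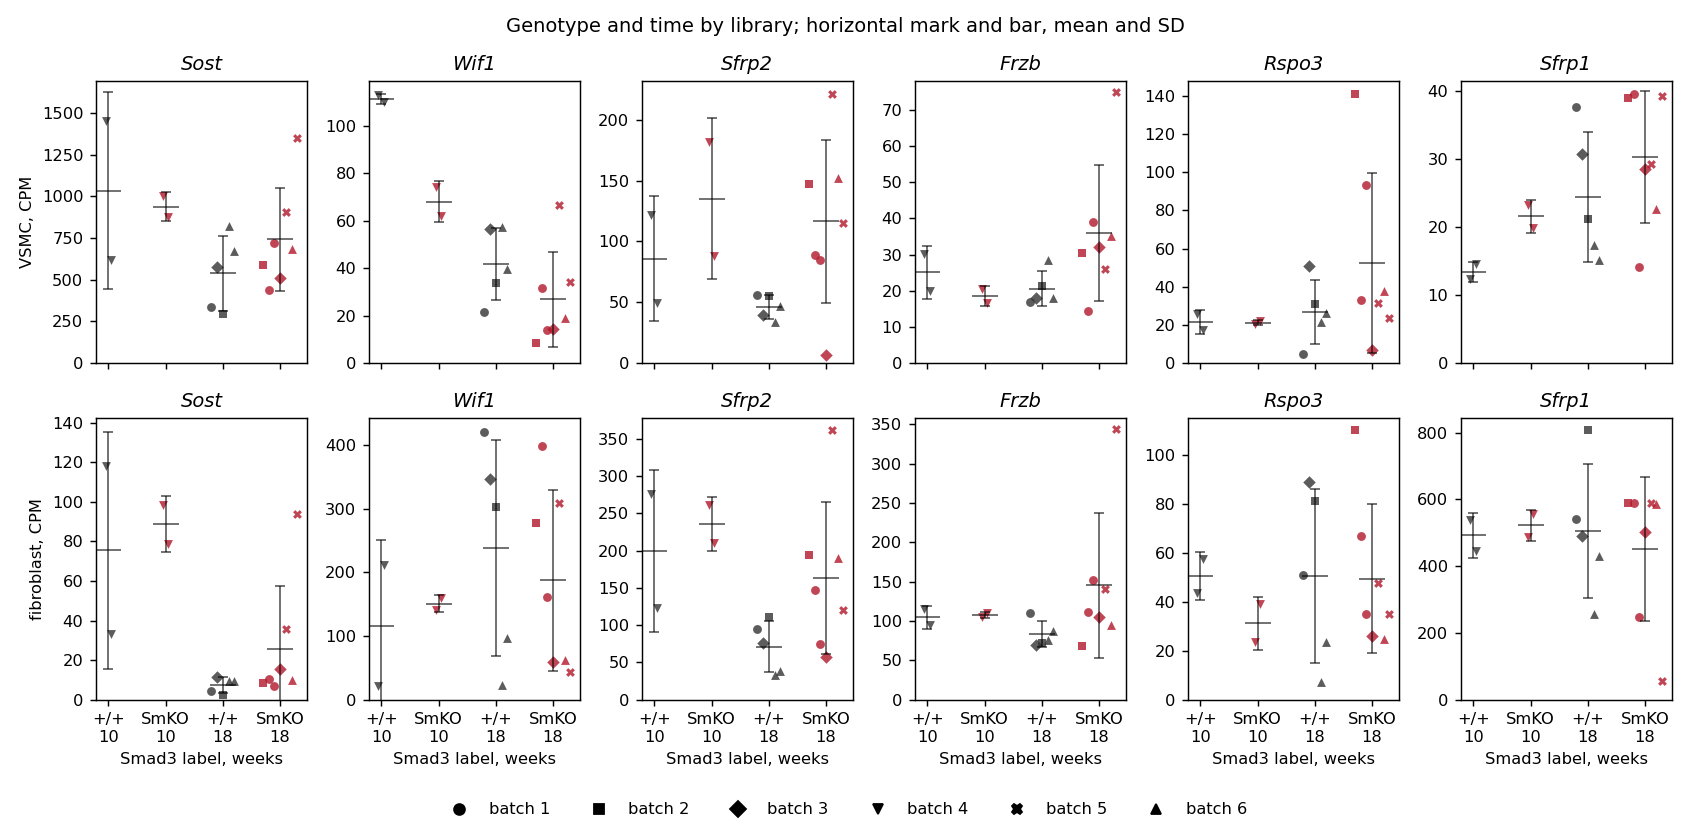
Level in CPM (vertical, from 0) of 6 genes in VSMCs (top) and fibroblasts (bottom), 1 point per library, by Smad3 label and weeks after deletion, with marker shapes for the 6 batches and a horizontal mark and bar for the mean and SD (bars end at 0). At 18 weeks the genotypes overlap in every panel. At 10 weeks, with 2 libraries per genotype, they lie apart for Wif1 and Sfrp1 in VSMCs, as for 28.2% of all genes there. In fibroblasts of 10 weeks they lie apart for Rspo3, as for 22.7% of all genes there.

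At 10 weeks 0 of the 9 genes tested in VSMCs were called by edgeR (0% of all genes), 1 at an unadjusted p under 0.05, and DESeq2 called 0. Wif1 measured 113 and 110 CPM in Smad3+/+ and 74.4 and 61.9 CPM in the libraries labelled Smad3SmKO (log2 -0.68, SE 0.379, adjusted p = 1.00 by edgeR). Sfrp1 measured 12.4 and 14.5 CPM against 23.3 and 19.9 CPM (log2 0.73, SE 0.321, adjusted p = 1.00 by edgeR). These 2 of 9 genes had groups that did not overlap, beside 28.2% of all genes. Along with them the fibroblast marker list in VSMCs summed to 1447 to 1482 CPM against 1182 to 1222 CPM, and the list of dissociation-induced genes to 2439 to 4138 CPM against 1575 to 1862 CPM. Their part in the 2 differences was not tested.

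In fibroblasts, where the Myh11-driven Cre should not act, 0 of 10 genes were called by edgeR at 18 weeks or at 10 weeks (0% of 14626 genes at each), 0 at an unadjusted p under 0.05, and DESeq2 called 0. At 18 weeks Sfrp2 measured 95.1, 76.0, 111, 33.7 and 38.8 CPM against 57.4, 147 and 362 CPM (log2 0.91, SE 0.457, not called by edgeR). Sost measured 4.39, 11.5, 2.23, 9.26 and 9.67 CPM against 6.71, 10.3 and 93.8 CPM (log2 0.76, SE 0.403, not called by edgeR) and was higher in 4 of 4 batches, as was Sfrp4. Beside Sost, the VSMC marker list in fibroblasts summed to 567 to 1772 CPM against 556 to 11476 CPM. For all 10 genes the groups overlapped at 18 weeks (they were apart for 0.0615% of all genes), and at 10 weeks Dkk2 (4.71 and 3.81 CPM against 1.07 and 2.81 CPM) and Rspo3 (43.7 and 57.4 CPM against 23.5 and 38.9 CPM) did not overlap, beside 22.7% of all genes.

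In endothelium 0 of 10 genes were called by edgeR at 18 or 10 weeks (0% of 11683 genes at each) and DESeq2 called 0. At an unadjusted p under 0.05, 1 gene passed at 18 weeks and 0 at 10 weeks. Fitted without the filter on low counts, Wif1 (-1.46, adjusted p = 6.86e-10) and Sfrp1 (-0.69, adjusted p = 0.0340) were called by edgeR at 18 weeks in these cells, most of which met another class rule. The test of the difference between genotype effects at 18 and 10 weeks called 0 of these genes in VSMCs (0.00844% of all genes) and 0 in fibroblasts (0%), and the test of the difference between fibroblasts and VSMCs at 18 weeks called 0 (0.00691%). In these 3 tests the unadjusted p was under 0.05 for 0 of the genes, and DESeq2 called 0.

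The rest of the Wnt pathway was read in lists of ligands, receptors, R-spondin receptors with their ligases, other secreted modulators, intracellular components and targets. No gene of any list was called between genotypes in VSMCs, fibroblasts or endothelium. Between fibroblasts and VSMCs, 9 of the 11 ligands tested were higher in fibroblasts and Wnt16 was lower, beside 39.4% and 32.8% of all genes. The median log2 difference of these ligands was 2.52, against 0.07 over all genes. Wnt5a, a ligand of non-canonical signaling, averaged 67.4 ± 31.7 CPM in fibroblasts and 5.50 ± 3.27 CPM in VSMCs (SD, n = 16). Wnt16 averaged 23.7 ± 21.1 CPM and 82.4 ± 43.6 CPM (SD, n = 16). Of 15 receptors and co-receptors 7 were higher in fibroblasts and 4 lower, and of 9 intracellular components 1 was higher and 6 lower. With 72.1% of all genes called, the numbers of receptors and of intracellular components called were near the background, and their median log2 differences were 0.20 and -0.21.

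The receptors of the R-spondins and the ligases they act on were all called between the classes, in both directions, beside 72.1% of all genes. Lgr6 averaged 62.6 ± 23.5 CPM in VSMCs and 3.89 ± 2.94 CPM in fibroblasts (SD, n = 16), and with Lgr4 and Znrf3 it was called lower in fibroblasts, whereas Lgr5 and Rnf43 were called higher. Of 10 targets 9 were higher in fibroblasts, beside 39.4% of all genes, at a median log2 difference of 2.03 over the 10, among them Axin2 at 8.12 ± 4.68 CPM against 2.39 ± 1.65 CPM (SD, n = 16), and Nkd1, a feedback inhibitor, was lower at 20.4 ± 7.10 CPM against 87.6 ± 25.5 CPM (SD, n = 16). Of the 11 other secreted modulators or their partners 3 were tested and all 3, Lrp4, Kremen1 and Notum, were higher in fibroblasts, beside 39.4% of all genes. Dkk1 reached 12 UMIs in all fibroblasts and 1 UMI in all VSMCs.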

How the data were processed

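UMI counts per gene and barcode, as deposited by the authors, came from Cell Ranger 6 per the submitters' notes and paper, with reads mapped to mm10 with a GFP sequence added, although the matrix headers name another Cell Ranger version. The authors' limits were applied (over 600 and under 6000 genes, over 2000 and under 50000 UMIs, under 25% mitochondrial counts). No doublet caller was run. Cells that met more than 1 class rule were removed in an alternative. Counts were summed per library and class and tested with edgeR 4.0.16 (quasi-likelihood, TMM, filterByExpr, Benjamini-Hochberg adjustment over all genes tested), with batch as a factor for genotype and library as a block between classes. Libraries with under 10 cells of a class were left out. DESeq2 1.42.0, other scaling, no low-count filter, no batch term, each digestion time, stricter classes and each library left out were alternatives. The edgeR script was tested on simulated data.

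Each library came from a separate mouse. Members and lists were chosen with earlier results of these data known. Genes named for likeness were the 3 with the highest median log2 ratio for each member found in at least 1% of the class, at 20 CPM or more. Depth per class ran from 281192 UMIs (VSMCs of 1 library) to 41510276 UMIs (fibroblasts), and low counts in few VSMCs make the 30 min values the least precise. Intervals and shares cover counting error only.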

Additional observations from a re-analysis of the deposited data

Results flagged for a closer look

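Of 60 groups of libraries examined, 6 held a library far from the others of its group. The limit used is one that about 1 in 20 groups would pass by chance if the groups were independent, and these share libraries. Of the 6, 5 were in Smad3SmKO replicate 7 of 18 weeks, the library with the fewest cells. Frzb there was at 74.9 CPM in VSMCs beside 14.4 to 39.1 CPM in the other 6 libraries, and at 344 CPM in fibroblasts beside 68.8 to 152 CPM. The group mean of Frzb was 36.0 CPM with and 29.5 CPM without that library in VSMCs, and 145 and 112 CPM in fibroblasts. Sost was at 93.8 CPM in its fibroblasts beside 6.71 to 35.6 CPM and at 958 CPM in its endothelium beside 36.2 to 299 CPM, which puts the group mean at 25.7 CPM with and 14.4 CPM without it in fibroblasts and at 224 and 102 CPM in endothelium. The VSMC marker list also reached its highest value of all libraries in the fibroblasts of that library, 11476 CPM, and its part in these values was not tested. Dkk2 in VSMCs was at 0.222 CPM there, on 2 UMIs, and at 0.655 CPM, on 5 UMIs, in Smad3+/+ replicate 5 of 18 weeks, beside 0 in the other libraries of each group.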

How the results depend on the processing

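Counts of genes called over the whole table depended on settings where few were called. For the VSMC genotype comparison at 18 weeks the 4 genes became 8 with DESeq2, 134 without the filter on low counts, 1 without the batch term, 7 in the 60 min libraries and 0 without the 4 libraries whose GFP went against their label, an alternative chosen after seeing the data. At 10 weeks in VSMCs 0 became 1 with DESeq2 and 51 without the filter, and for the difference between times in VSMCs 1 became 2, 70, 0 without the batch term and 2 at 60 min. DESeq2 called 3 genes in fibroblasts at 18 weeks, 3 at 10 weeks, 1 for the difference between times, and 7 in endothelium at 10 weeks, each against 0. Without the filter endothelium gave 120 genes at 18 weeks and 38 at 10 weeks. Endothelium against fibroblasts gave 5677 genes, 3157 at 30 min (fewer libraries) and 8522 in cells of 1 class. For the genotype effect in fibroblasts minus VSMCs 1 gene became 3 with DESeq2, 7 without the filter, 44 at 30 min, 2 with all deposited barcodes and 0 without the batch term, at 60 min or without the 4 libraries. With each library left out in turn these counts ran from 3 to 8 (VSMC, 18 weeks), 0 to 2 (VSMC, 10 weeks), 0 to 1 (difference between times) and 0 to 4 (fibroblasts minus VSMCs). Where the lone library left of an arm entered a fit, it was assumed to vary like the other groups.

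The log2 differences that changed sign follow, and those called after the change are named as such. In VSMCs at 18 weeks Sfrp1 turned to -0.06 at 30 min and -0.09 without the 4 libraries, Sost to -0.01 at 60 min, and Rspo1 to -0.88 without the batch term, -0.79 at 30 min and -0.76 without the 4 libraries. At 10 weeks Rspo1 turned to -0.07 with DESeq2. In fibroblasts at 18 weeks Sfrp1 turned to -0.11, -0.29 and -0.28 and Dkk3 to -0.03, -0.23 and -0.21 (without the batch term, at 30 min, without the 4 libraries), and at 60 min Wif1 turned to 0.20, Dkk2 to -0.58 and Rspo1 to 0.71. Between fibroblasts and VSMCs Rspo1 turned to -0.86 at 30 min. Between endothelium and fibroblasts Sfrp2 (from 0.58, called, to -2.66, called), Sost (from 2.37, called, to -0.34) and Frzb (to -0.99, called) turned in cells of 1 class, and Frzb to -0.16 at 60 min. Leaving out each library gave -0.08 to 0.48 for Sfrp1, -0.46 to 0.46 for Sfrp4 and -0.74 to 1.22 for Rspo1 in VSMCs at 18 weeks, -0.47 to 0.50 for Sost and -1.01 to 1.85 for Rspo1 at 10 weeks, and -0.29 to 0.24 for Sfrp1 and -0.22 to 0.18 for Dkk3 in fibroblasts at 18 weeks. The cause was not tested.

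Libraries could not be paired by replicate number, because the labels give the groups no shared replicate numbers, which here follow accession order. Batches that held both genotypes were matched by the batch factor of the fit instead. Fibroblast against VSMC differences of Sfrp1, Sfrp4, Dkk2, Dkk3, Sost and Frzb kept their direction and their call under all alternatives in which they were tested. Dkk2 was not tested in the 30 min libraries alone. Depth limits Dkk2 in VSMCs (10 UMIs) and Rspo1 in VSMCs (214 UMIs) most.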

Other observations

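VSMCs that carried Rspo1 looked unlike other VSMCs. Only 125 VSMCs (1.40%) held a Rspo1 UMI, up to 37.5% of the VSMCs of 1 library, and 4 libraries held enough of them to compare with the rest. In those 4 libraries they had more Rasd1 (median log2 3.12), Olfr558 (3.02) and Bex4 (2.79) and less Sfrp2 (-3.69), Dkk3 (-2.91), Sost (-2.68) and Wif1 (-1.94), each in 4 of 4 libraries. The same pair of genes read in reverse is no separate check, and there VSMCs with a Sost UMI held less Rspo1 than those without in 15 of 15 libraries (-1.58). Since 85.2% of VSMCs held a Sost UMI, the cells without were the smaller part. Genes ranked in VSMCs were looked at after their values were seen.

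Sost-positive VSMCs held more Emb (2.22, in 15 of 15 libraries), Sfrp2 (2.11, in 14 of 15) and Ppef1 (1.88, in 15 of 15), and more Dkk3 (0.84, in 15 of 15). VSMCs with a Frzb UMI held more Sfrp2 (2.02), Prrx2 (1.42) in 12 of 12 libraries and Lum (1.44) in 10 of 12. VSMCs with a Sfrp2 UMI held more Rgs5 (1.66), a marker shared with pericytes, Prrx2 (1.56) and Lamc3 (1.43) in 14 of 14 libraries. Sfrp4, the partner of Sfrp2 in fibroblasts, was hardly raised in those VSMCs (0.12, higher in 9 of 14 libraries). Read the other way, VSMCs with a Sfrp4 UMI held more Sfrp2 (1.24, in 6 of 8 libraries). Sfrp4 was low in VSMCs, and the constant added to each level draws ratios of low levels toward no difference. Whether the pair is weaker in VSMCs than in fibroblasts was not tested. Wif1 and Rspo3, found together in fibroblasts, were not raised with each other in VSMCs, where cells with a Rspo3 UMI differed in Wif1 by a median log2 of 0.22, higher in 8 of 13 libraries.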
